A study of Drosophila melanogaster with 2 samples.

Results

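Dpp, the BMP-type morphogen of flies, signals through a short chain of proteins. The genes of that chain are described here as targets of chromatin binding by CTCF. The set is 10 genes listed by name, of 17683 annotated genes on the chromosome arms: the ligand genes dpp, gbb and scw, the receptor genes tkv, sax and put, the signal transducer genes Mad and Med, the repressor gene brk and the antagonist gene sog. All 10 were found by symbol in the BDGP6 annotation. For each gene the peaks in its body, within 1 kb of one of its transcript starts and within 20 kb outside its body were collected, with their strength in each replicate.

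CTCF, a DNA-binding protein with zinc fingers, occupies insulators and promoters in the fly genome. The series mapped it by chromatin immunoprecipitation and sequencing in whole Drosophila melanogaster embryos, 0 to 16 h old and of pooled sexes. They came from 1 transgenic strain, CTCF-GFP, which stably carries a CTCF fused at its carboxyl end to GFP, and no other allele or agent is named. Its 1 group holds 2 biological replicates, numbered 2 and 3, so no contrast between conditions is possible. The precipitating antibody was directed against GFP per the sample descriptions, while the antibody field of the labels names CTCF. The labels name neither the promoter that drives the fusion nor whether the line keeps untagged CTCF. A whole embryo mixes tissues in which the Dpp pathway is on and off, so a weak peak in all cells and a strong peak in few cells cannot be told apart.

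In the pathway, dimers of the secreted ligands bind a complex of type I receptors (tkv, sax) and the type II receptor (put). Signalling by this receptor complex leads to phosphorylation of the Smad protein Mad. Mad joins the co-Smad Med, enters the nucleus and, with Schnurri, silences brk, whose product is the repressor of most Dpp targets. In the early embryo Dpp and Scw pattern the dorsal side, and Sog, secreted from lateral cells, binds the ligands and shapes their gradient.

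Tagged CTCF had a peak within 1 kb of a start at 2 of 3 receptor genes, both Smad genes and brk, and at no ligand gene. With at most 3 genes in a role, no pattern by role can be read from these counts. Of the 10 genes, 5 (tkv, put, Mad, Med and brk) had a reproducible peak summit within 1 kb of a transcript start, which is 50%, beside 24.4% of all annotated genes and 27.3% of protein-coding genes. A reproducible peak is one on the authors' list of 5443 peaks thresholded by the irreproducible discovery rate (IDR) over both replicates. None of the 3 ligand genes and not sog had such a summit. In their bodies 5 genes (dpp, tkv, put, Mad and sog) held a summit, beside 11.6% of all and 13.6% of protein-coding genes. Body or start together gave 7 of 10, beside 27.4%, and all 10 genes had a summit in the body or within 20 kb outside, beside 82.2% of all and 84.0% of protein-coding genes. These shares describe 10 chosen genes, and with 1 group of samples no test over them was made.

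The count at starts depends on the distance allowed. At 500 bp and at 200 bp it was 2 genes (put and Med), beside 20.1% and 14.6% of all genes, and among the 2721 strongest reproducible peaks it was 2 other genes (tkv and Mad), beside 11.7% of all genes. The tkv summit lay just inside the 1 kb limit, at 998 bp (signal 916), and just outside it lay summits at 1144 bp from gbb (663) and 1182 bp from Med (371). At the 20 kb limit, the outermost summit counted lay 18347 bp from gbb (220), and the next lay 20192 bp from Mad (949).

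Gene length goes with the body counts. The 5 members of 5 kb or longer all held a body summit and none of the 5 shorter ones did. Among all protein-coding genes the shares were 35.8% at or above that length and 6.19% below it. The length limit was chosen after the values were seen. Over the merged bodies of the members there were 5.38 reproducible summits per 100 kb (8 summits in 149 kb), compared with 3.19 over all gene bodies. The members' bodies held 12.1 gene starts per 100 kb against 19.0 over all gene bodies. With the 20 kb on either side included, the density was 7.29 per 100 kb (40 summits in 549 kb), compared with 4.07 over the chromosome arms. The same stretches held 18.0 gene starts per 100 kb against 13.2 on the arms. The part of this in the peak density was not tested.

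**Figure D1:**
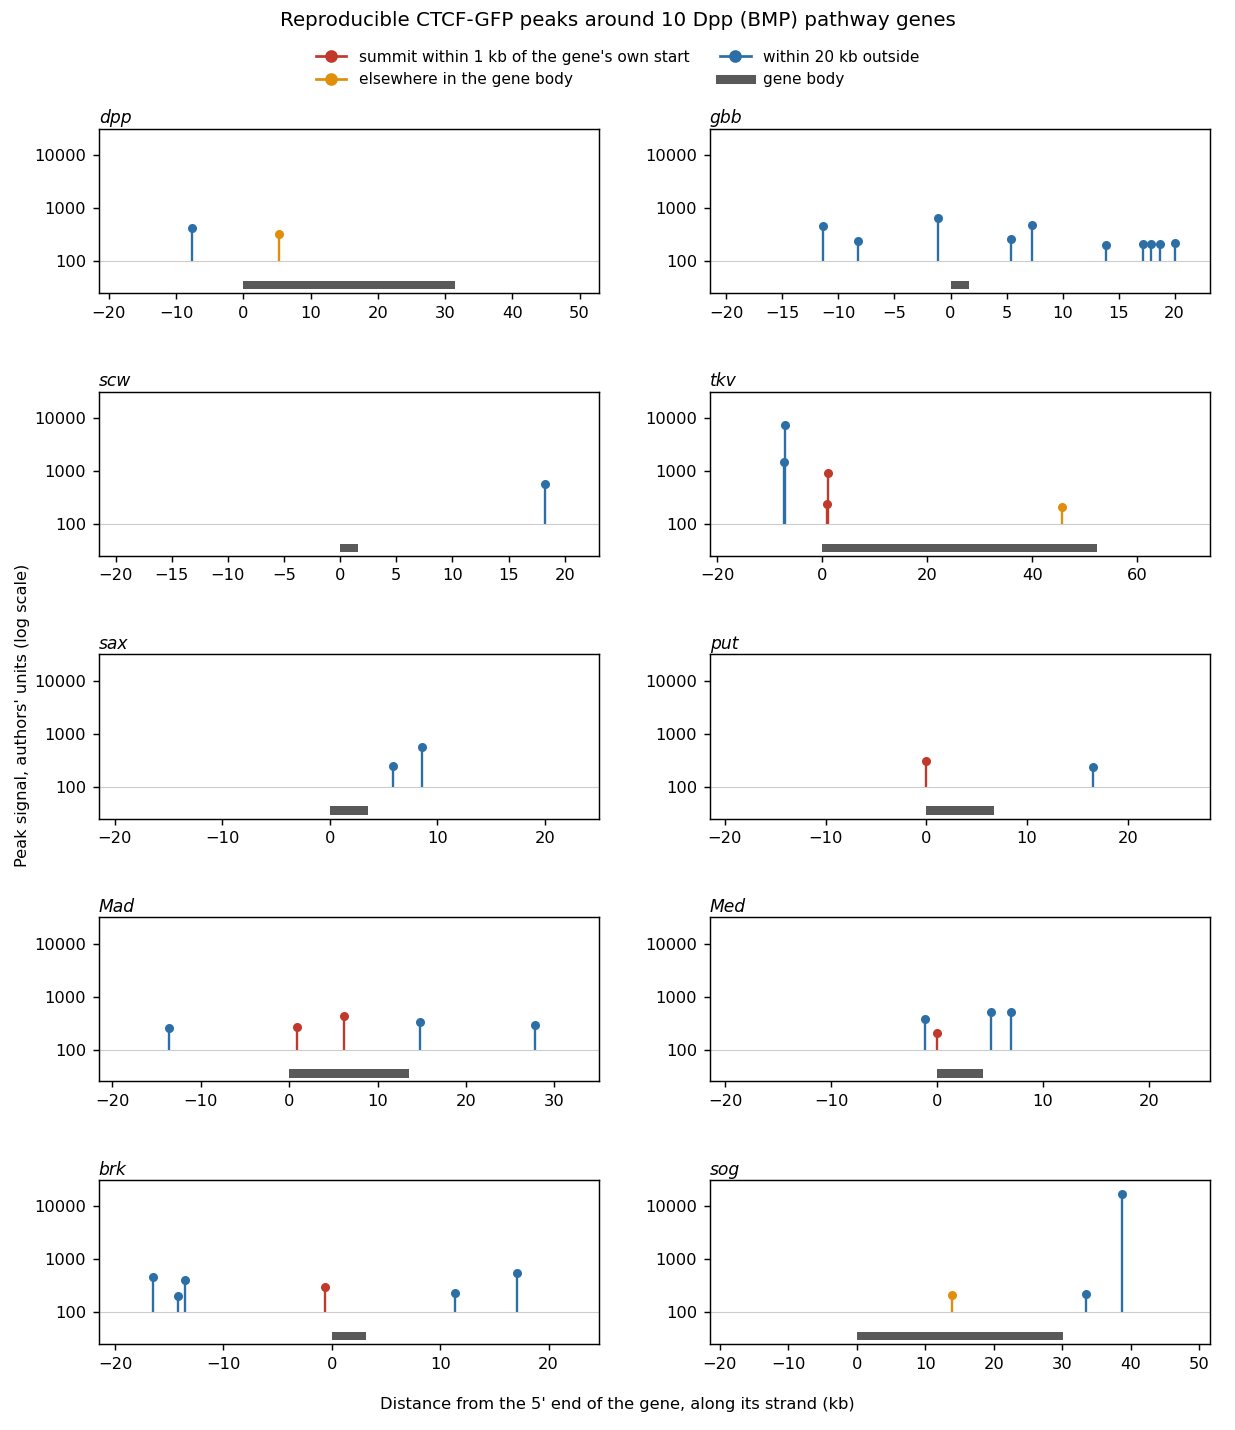
Each panel shows a gene body (grey bar, from its 5' end) and the reproducible peak summits within 20 kb of it, with distance along the gene's strand in kb on the horizontal axis and the authors' peak signal on a log vertical axis; red marks summits within 1 kb of the gene's own start, orange others in the body and blue those outside. Peaks at members' own starts or bodies lie between 202 and 916, and only the flanks of tkv and sog hold peaks above 1000.

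The members' own peaks were weak. The authors' signal value has no stated scale and is used only to rank peaks. The 10 peaks in bodies or at starts had signals between 202 and 916 with a median of 282, and 8 of them lay under the median of all 5443 reproducible peaks (345). The 7 at starts had a median of 296, next to 323 over the 3415 reproducible peaks within 1 kb of any start. The strongest reproducible peak anywhere had a signal of 89235.

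None of these 10 peaks carried the CTCF core motif. Its 4 forms, AGAGGGCGC, AGATGGCGC, AGGGGGCGC and AGGTGGCGC, were looked for on either strand up to 50 bp from each summit. It was absent from all 10 also with 1 mismatch allowed, beside 12.7% of all reproducible peaks that held it exactly and 24.8% with at most 1 mismatch. Among only 10 peaks, none is not far from these shares, which cover peaks of every signal. Most of the windows were poor in G and C, with a median GC content of 31.7% (range 20.8 to 49.5%). The median was 40.6% over all reproducible peaks and 40.1% over the members' flanking peaks. Above both were put and Med (49.5% each), whose summits lay nearest to a start, and the Mad window at 3158790 (45.5%). An untagged control was not analysed here, so the part of background enrichment in these weak peaks was not tested.

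The windows at the strongest own peak of each gene are shown to let these base compositions be seen. Each reaches 50 bases to either side of the summit, on the plus strand of dm6 from the RefSeq genome, with the summit base in capitals. Bases in annotated UTRs were left out, which shortens Med and leaves put with the 38 bases just upstream of its start and without its summit.
tkv, chr2L:5270336-5270436: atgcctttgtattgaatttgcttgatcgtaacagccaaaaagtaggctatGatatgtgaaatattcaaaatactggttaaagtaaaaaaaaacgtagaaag
Mad, chr2L:3153348-3153448: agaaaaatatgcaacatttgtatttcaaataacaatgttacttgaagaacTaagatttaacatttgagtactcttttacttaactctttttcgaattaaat
dpp, chr2L:2433590-2433690: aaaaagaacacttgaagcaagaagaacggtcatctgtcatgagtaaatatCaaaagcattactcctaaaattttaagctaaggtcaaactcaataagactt
brk, chrX:7307249-7307349: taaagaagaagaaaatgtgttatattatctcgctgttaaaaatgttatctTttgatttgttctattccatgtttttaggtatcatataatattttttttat
sog, chrX:15619432-15619532: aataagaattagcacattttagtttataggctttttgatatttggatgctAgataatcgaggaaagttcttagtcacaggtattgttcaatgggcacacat
Med, chr3R:31610991-31611045: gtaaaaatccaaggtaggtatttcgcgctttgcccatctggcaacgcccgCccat
put, chr3R:14625704-14625741: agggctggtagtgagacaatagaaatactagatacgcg

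The receptor gene tkv (FBgn0003716, 2L from 5219000 to 5271384, minus strand) had the strongest own peak. Its encoded type I receptor, Thickveins, is the main receptor for Dpp. The summit at 5270386 lay in an intron, 998 bp downstream of the outermost of 4 starts. Replicate 2 gave it 409 and replicate 3 gave it 493, and it ranked 1151 of 5443 in the reproducible list. A second summit, at 5270593 and 791 bp from the same start, had 121 in replicate 2 and 99.0 in replicate 3. Both summits thus sit in the same stretch of intron, and their intervals overlap. A further intronic summit, at 5225792 and 11570 bp from the nearest start of tkv, had 96.8 and 103. It was among the weakest of the list, with 6.39% of reproducible peaks below it.

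Punt, the type II receptor encoded by put (FBgn0003169, 3R from 14619030 to 14625703, minus strand), had its peak close to its start. The summit at 14625691 was 12 bp inside the transcript, in the 5' UTR, and 64 bp from the start of the neighbouring histone gene His4r. Its signal was 128 in replicate 2 and 169 in replicate 3, at rank 3139. The promoter of put therefore cannot be told apart from that of His4r at the resolution of these peaks.

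The type I receptor gene sax (FBgn0003317, 2R from 7806484 to 7810067, plus strand), whose product Saxophone prefers Gbb and Scw, had no reproducible peak of its own. The relaxed lists, which hold 30000 peaks each and include background, listed a summit 71 bp upstream of a start in replicate 2 (105) and 68 bp upstream in replicate 3 (75.0). In the pooled relaxed list it ranked 6433, below the 5443 reproducible peaks. With replicate 2's strongest 5443 peaks in place of the reproducible list, sax was the sixth gene with a peak at its start; with those of replicate 3 it was not. The receptors thus ran from the strongest own peak of the set to a sub-threshold one.

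The Smad genes both had peaks at starts. Mad (FBgn0011648, 2L from 3146056 to 3159643, minus strand) had a summit at 3153398, in an intron and 645 bp upstream of its inner start, with 200 in replicate 2 and 230 in replicate 3. A second summit at 3158790, in an intron and 853 bp downstream of the outer start, had 122 and 143. Each of the 2 annotated starts of Mad thus had a peak within 1 kb, and replicate 3 was the higher at both.

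Med (FBgn0288966, 3R from 31611046 to 31615375, plus strand) had the own peak with the lowest reproducible signal (202) and the one nearest to a start. In each replicate the tkv summit at 5225792 was lower. The summit at 31611041 lay 5 bp upstream of its start, inside the body of the cyclin gene CycG, which has a start 63 bp away. It had 111 in replicate 2 and 104 in replicate 3, and 3.89% of reproducible peaks were weaker. A separate summit at 31609864, 49 bp from another start of CycG, was stronger in both replicates (197 and 139).

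The repressor gene brk (FBgn0024250, X from 7307939 to 7311132, plus strand) had a summit at 7307299, 640 bp upstream of its only start. Its signal was 111 in replicate 2 and 136 in replicate 3, at rank 3242. In replicate 2 a stronger summit (183) was listed 118 bp from it, outside the 100 bp used to match summits between lists. The gene lies inside the long annotated genes CG1677 and lncRNA:CR44357, so the same summit is also within their bodies.

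Among the ligands, dpp (FBgn0000490, 2L from 2428372 to 2459823, plus strand) had a single own peak. Its summit at 2433640 lay in an intron, 5268 bp downstream of the outermost of 4 starts, with 157 in replicate 2 and 167 in replicate 3. The replicates differed by 0.09 on the log2 scale there. No other reproducible summit lay in its body, while the pooled relaxed list held 7 summits there or at its starts.

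The ligand genes gbb (FBgn0024234, 2R from 23851562 to 23853247, plus strand) and scw (FBgn0005590, 2L from 19699379 to 19700968, minus strand) had no reproducible peak in the body or at the start. At gbb, whose product acts with Dpp in discs and at the neuromuscular junction, replicate 2 listed no relaxed peak, and replicate 3 listed 1 of signal 46.0, 399 bp upstream. The pooled relaxed list held 1 there, 45 bp upstream, of signal 59.1 and rank 26810. At scw, whose product acts with Dpp in the early embryo, no peak was listed in either replicate or in the pooled relaxed list, beside 61.3% of all genes that had a pooled relaxed peak in the body or at a start. The nearest reproducible summit to the scw start was 18254 bp away, and 78.7% of all genes had a nearer one.

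The antagonist gene sog (FBgn0003463, X from 15603283 to 15633434, minus strand) had 1 own peak, in an intron. The summit at 15619482 lay 7058 bp downstream of the inner of 2 starts, with 130 in replicate 2 and 101 in replicate 3. Its rank of 4807 placed it among the weak reproducible peaks, and with replicate 3's strongest 5443 peaks in place of the reproducible list sog had none in its body.

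**Figure D2:**
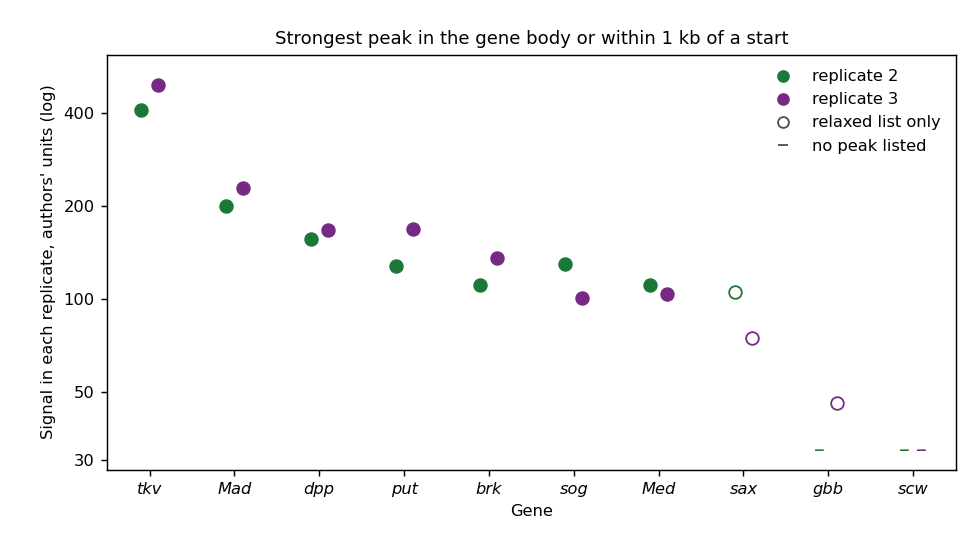
Filled points give the value in each replicate matched to a gene's strongest reproducible peak in the body or within 1 kb of a start. Genes without such a peak show the strongest one there in each replicate's relaxed list (open), or a dash where none is listed. The authors' signal is on a log axis, and a stronger replicate 2 summit at brk (183) is not plotted. The signal of tkv, 409 and 493, is above that of every other gene, and scw has no peak in either replicate.

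Ordered by the reproducible signal of the strongest own peak, the genes ran tkv (916), Mad (424), dpp (320), put (305), brk (296), sog (216) and Med (202). The replicate values of tkv (409 to 493) did not overlap those of Mad (200 to 230), and those of Mad did not overlap those of dpp (157 to 167). From dpp downward each neighbour's replicate range overlapped the next. Within each replicate put was above brk (128 and 169 against 111 and 136), though a stronger unmatched brk summit (183) was listed in replicate 2. The order of the other neighbours from dpp downward differed between the replicates.

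The replicates gave like values at the members' own peaks. All 10 could be matched in each replicate to a summit at most 100 bp away, beside 96.1% of all reproducible peaks, and the log2 ratio of replicate 3 to replicate 2 ran from -0.37 to 0.40 with a median of 0.14. Over the 5233 matched reproducible peaks the median ratio was 0.10 with an SD of 0.42, and 1 of the 10, that in sog, lay more than 1 SD from it, beside 23.6% of all matched peaks. Over all 38 matched peaks of the members, flanks included, the median was 0.12. There 5 peaks lay more than 2 SD from the median of all peaks, all of them outside the genes, beside 5.58% of all matched peaks. IDR chose the list by how well these same replicates agreed, so this closeness is partly set by the choice.

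**Figure D3:**
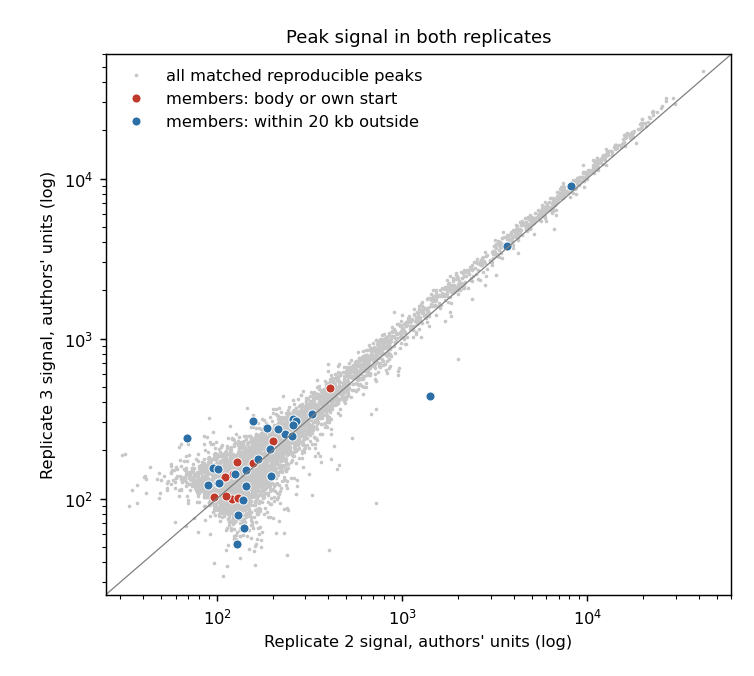
Signal in replicate 3 is plotted against signal in replicate 2, both on log axes, for all matched reproducible peaks (grey) and for the members' own (red) and flanking (blue) peaks; the line marks equal values. The own peaks reach no higher than 409 in replicate 2 and 493 in replicate 3, and the blue point below it at 1410 and 436 is the summit near Bub1 beside tkv.

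Of the 30 summits within 20 kb outside the members, 21 lay within 1 kb of another gene's start, and for 1 alone a start of the member was the nearest start. Their signals ran from 200 to 17046 with a median of 353. Over the whole list 62.7% of summits were within 1 kb of some start, so the share among the flanking summits was near the background.

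The strongest peak within 20 kb of any member was beyond the 3' end of sog. Its summit at 15594649, 8634 bp outside the gene and 1115 bp from the nearest start, that of Chsy, which encodes a chondroitin synthase, had 8123 in replicate 2 and 8942 in replicate 3. It ranked 171 of 5443. A still stronger reproducible peak (17891) lay upstream of sog but past the 20 kb limit, so it was not counted. The second of the counted peaks stood between the divergent genes Nin and Bub1, 7172 bp upstream of tkv. There the summit at 5278556, 8 bp from the start of Nin, had 3685 in replicate 2 and 3768 in replicate 3. A further summit of the same interval, at 5278799 and 66 bp from the start of Bub1, which encodes a spindle checkpoint kinase, had 1410 in replicate 2 and 436 in replicate 3. That is a log2 ratio of -1.69, the lowest of the members' peaks. These 3 summits were the members' only ones above 1000.

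Exact copies of the CTCF core were at 2 of the members' 40 peaks, both outside the genes: the one beyond sog and one 16665 bp beyond the 3' end of scw. The latter had its summit at 19682714, inside the genes Lar, which encodes a receptor tyrosine phosphatase, and CG46244, with 258 in replicate 2 and 314 in replicate 3. With replicate 2's list alone its motif fell outside the 50 bp window and the count was 1. With at most 1 mismatch the count was 7, all flanking. The windows that hold a core are shown with the core in capitals on the plus strand of dm6, the core near Nin with 1 mismatch; at sog the capitals are the reverse complement of AGATGGCGC, and at Nin 43 UTR bases were left out.
sog flank, chrX:15594599-15594699: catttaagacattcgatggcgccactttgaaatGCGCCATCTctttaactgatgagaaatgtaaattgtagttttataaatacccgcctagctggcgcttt
scw flank, chr2L:19682664-19682764: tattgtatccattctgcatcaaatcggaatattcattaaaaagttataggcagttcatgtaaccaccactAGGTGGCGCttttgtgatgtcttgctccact
tkv flank at Nin, chr2L:5278549-5278606: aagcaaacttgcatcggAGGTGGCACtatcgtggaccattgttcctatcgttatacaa

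Other copies of the core in these neighbourhoods had no peak. Of 8 exact copies in the members' bodies and flanks, 2 had a reproducible summit within 50 bp, and on the arms 740 of 2929 copies did (25.3%). The single copy inside a member lay in sog, 972 bp from a start, and the nearest pooled relaxed summit to it was 781 bp away. A copy 7815 bp upstream of brk also had no summit within 50 bp.

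Of the other motifs searched within 50 bp, the DRE (TATCGATA) and Motif 1 (GGTCACAC), both of core promoters, were at none of the 10 own peaks, beside 2.83% and 2.48% of all reproducible peaks. GAGAG was at 1 of them, beside 11.1%. The Brk site, GGCG followed by a pair of pyrimidines, was at 2 of them, at Mad and Med, beside 24.9%. It can overlap the end of the CTCF core. These are matches of letters and not shown to be sites.

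At the other peaks around each gene, brk had 5 flanking summits. Those upstream were at 16521 bp (187 in replicate 2 and 277 in replicate 3, near unc-119), 14217 bp (140 and 65.8) and 13529 bp (194 and 205). Downstream were summits 8167 bp beyond the gene (102 and 124) and 13887 bp beyond it, near Dok (259 and 290), the strongest of the 5. The 3 upstream summits thus stood close together and far from brk, inside the span of CG1677.

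The flanks of gbb held 10 summits, the most of any member, between 200 and 663, and 9 of them were within 1 kb of another gene's start. The strongest and nearest, 1144 bp upstream, lay 88 bp from the start of asRNA:CR45928 and had 326 in replicate 2 and 337 in replicate 3. Starts of 16 other genes lay in that stretch, and none lay within 20 kb of scw, which had a single summit. Near Mad the closest flanking summit was 1207 bp beyond its 3' end and 63 bp from the start of toc, with 166 and 178, and that was also the strongest of its 3. Near Med the closest beyond its 3' end was 790 bp away, at the start of Mnat9, which encodes an N-acetyltransferase (256 in replicate 2 and 247 in replicate 3). The next, 2639 bp away at the start of pasha, a gene of microRNA processing, had 215 and 272, so which of the pair was stronger differed between replicates.

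Near sax the closest summit lay 2325 bp beyond its 3' end (137 in replicate 2 and 97.3 in replicate 3), 112 bp from the start of puml. The strongest was 4968 bp beyond it (266 and 305), inside puml. Near put the only flanking summit was 9912 bp beyond its 3' end (101 and 153), 524 bp from CG14853. Near sog the closest flanking summit lay 3405 bp beyond the gene (130 and 78.7). Near dpp the only one was 7633 bp upstream, 91 bp from CG9886, with 68.9 in replicate 2 and 240 in replicate 3, a log2 ratio of 1.80 and the highest among the members' peaks. The replicate 2 summit there was 86 bp from the reproducible one.

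**Figure D4:**
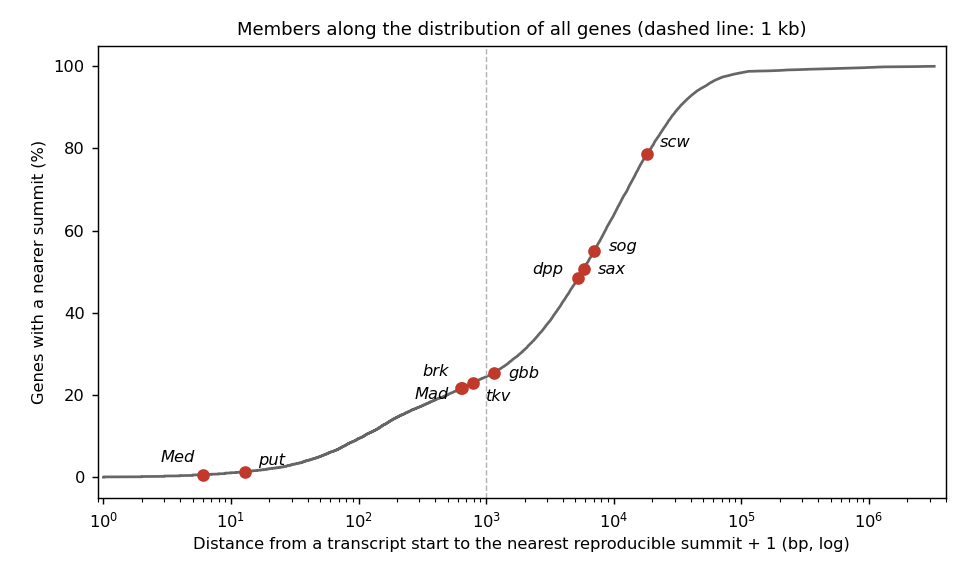
The grey curve gives the share of all 17683 genes whose nearest reproducible summit is closer to a transcript start than the distance in bp (plus 1) on the log axis, the dashed line marks 1 kb, and each red point is a member. Med (5 bp) and put (12 bp) stand at the left end, and scw (18254 bp) stands farthest to the right.

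Measured from any transcript start, the nearest reproducible summit was a median of 968 bp from the members, compared with 5628 bp over all genes and 5182 bp over protein-coding genes. Of all genes, 0.526% had a nearer summit than Med and 1.29% a nearer one than put. At dpp, sax and sog the distances of 5268, 5795 and 7058 bp were close to the median of all genes.

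The region upstream of brk carries silencer elements, sequences where Mad, Med and Schnurri assemble to switch brk off. Matches to the consensus of this element, searched on both strands, numbered 372 on the arms. The body and flanks of brk held 10 of these copies, those of sog 2, those of tkv and dpp 1 each, and the other members none. 5 of the copies at brk are shown 5' to 3' on their own strand, all in capitals since each is a match to the consensus over its whole length. The copies are matches of letters, and binding of Mad, Med or Schnurri to them was not measured. Those shown are the copy nearest to a reproducible summit, the 3 that lie closest together and the one nearest to the gene.
brk at -13837 bp, chrX:7294094-7294109, plus strand: GGCGACAGACTGTCTG
brk at -8210 bp, chrX:7299721-7299736, plus strand: GACGACAGAGTGTCTG
brk at -8178 bp, chrX:7299753-7299768, plus strand: GGCGACATTCTGTCTG
brk at -8027 bp, chrX:7299904-7299919, minus strand: GACGTCGCTCTGTCTG
brk at -2169 bp, chrX:7305762-7305777, minus strand: GACGACGGACTGTCTG

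No match to the silencer element lay within 50 bp of a member's reproducible summit, and 1 of the 5443 reproducible peaks (0.0184%) had one. The copy at -13837 bp was 308 bp from the reproducible summit with signal 404, and was the only one of the 10 within 500 bp of a reproducible summit, beside 4.70% of the copies elsewhere. All 10 copies had a summit of the pooled relaxed list within 55 to 334 bp, and at 9 of them, all but that copy, the nearest was not a reproducible peak. Of the 362 copies elsewhere, 27.1% had a pooled relaxed summit within 500 bp, a distance chosen after the values were seen. Inside sog, 1739 bp from a start, a further copy lay 14 bp from a relaxed summit. The relaxed list was dense at brk, with 18 summits in the 20 kb upstream of brk, or 90 per 100 kb against 22.4 on the arms, and 4 of the 18 were reproducible peaks. Of all bases in the body and flanks of brk, 45.4% lay within 500 bp of a relaxed summit, against 18.7% on the arms. Of the summits there below the reproducible threshold, the one at -8360 bp, nearest to the 3 copies that lie closest together, had 74.0 in replicate 2 and 87.1 in replicate 3.

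Across the wider pathway, 13 of 46 further genes (28.3%) had a reproducible summit within 1 kb of a start, near the 24.4% of all genes. Intracellular regulators had one at 5 of 9. The strongest was 858 bp from a start of nej, the histone acetyltransferase CBP (12580 in replicate 2 and 14143 in replicate 3), though the start of lncRNA:CR42657 was nearer. The others were gro, a corepressor (264 and 247), Snoo, a Smad corepressor (184 and 298), Smurf and shn. Smurf, a ubiquitin ligase that acts on Mad, had 190 and 121, with the start of CG30105 nearer, at 52 bp against 230 bp. The peak given for shn, which encodes Schnurri itself, had 153 in replicate 2 and no summit within 100 bp in replicate 3. Another reproducible summit lay nearer to a start at shn (111 bp against 325 bp) and at gro (22 bp against 119 bp). With only peaks matched in both replicates the count of 13 was the same.

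Dpp target genes had a start peak at 4 of 16 (25%), near the 24.4% of all genes. The same 24.4% stands beside the counts of the other roles. At ush, which encodes a cofactor of GATA factors, the summit given had 19600 in replicate 2 and 22217 in replicate 3. It carried the exact core, the only one of the 13 given to do so. It lay 573 bp from a start of ush and as far from one of lncRNA:CR46258. Another reproducible summit lay nearer to a start of ush, 56 bp away, and the gene's body held 12 summits. At salr, a spalt gene of the wing, the start peak had 1362 and 1540. At bam, a germline differentiation gene that Dpp represses, it had 385 and 414, and at bi, the optomotor-blind gene, 82.3 and 148. Extracellular modulators had a peak at 3 of 15, the secreted factor genes magu (218 and 235) and srw (112 and 169), the latter 2 bp from the start of CG11583, and the heparan sulfatase gene Sulf1 (114 and 127). Of the other TGF-beta family ligand genes 1 of 4 had one, the activin gene Actbeta (196 and 172), and neither of the receptor genes wit and babo did. With starts at most 2 kb away the count of 13 was 20, at most 200 bp away 8, and among the 2721 strongest peaks 8.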

How the data were processed

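CTCF-GFP binding was measured in whole embryos as 2 replicates of 1 group. The authors deposited peak lists on dm6: a relaxed list of 30000 peaks per replicate, a pooled relaxed list, and the reproducible list made from them by IDR, per the file headers. The deposited signal of each peak, a value the authors' caller assigned on a scale that is not stated, was used unchanged. Which caller and aligner were used, and how deep the reads were, is not given here by labels or headers. Sonicated chromatin is labelled 200 to 800 in size. Lists on dm3 were not used here.

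Genes came from Ensembl release 115 (BDGP6.54, dm6 coordinates), with 17683 FlyBase genes on the arms, and bases from the RefSeq genome of the same assembly. All 10 members have the same coordinates in both annotations. Every listed summit was kept, positions are 1-based, and 1 peak in the relaxed list of replicate 3 and 1 in the pooled relaxed list lay on no arm. A replicate's value is that of its nearest summit within 100 bp. Genes were named by a fixed rule: all members with every own peak, the nearest and strongest flanking peaks, and wider pathway genes with a start peak, up to 5 a role; the other flanking peaks named at Med, Mad, brk and tkv were chosen after their values were seen. Members, lists and limits were chosen with earlier results of these data known. With 2 samples of 1 group no test was possible. The replicates are labelled biological, and their numbers are those of the labels. Counting steps were tested on simulated data (8 of 8 checks passed). Python 3.11.15, numpy 2.4.6, pandas 2.3.3, scipy 1.17.1 and matplotlib 3.10.9 were used. Alternatives were other distances, interval overlap, the 2721 strongest peaks, each replicate alone, merged peaks, other motif settings, coding transcripts only and, added after the data were examined, peaks matched in both replicates.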

Additional observations from a re-analysis of the deposited data

How the results depend on the processing

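Of 52 recomputed values, 40 stayed within 1.5 times the reported count or within the spread of the replicate ratio. Within 200 bp of starts, 2 members and 8 wider pathway genes had a summit, and within 500 bp 2 members. Within 2 kb, 20 wider pathway genes had one. With 50 kb outside the genes, the members had 78 distinct peaks. Among the 2721 strongest peaks, 2 members had a summit at a start, beside 11.7% of all genes, and 2 in the body. The members had 17 distinct peaks there, 2 of them own peaks, and 8 wider pathway genes had a start summit. This setting uses fewer peaks by construction. The core was at 7 peaks with at most 1 mismatch. Without replicate 2 or 3, 5 to 6 members had a start summit and 4 to 5 a body summit. There were 34 to 38 distinct peaks, 8 to 11 own peaks and 1 to 2 motif peaks, and 13 to 15 wider pathway genes had a start summit. Of all genes, 24.5% had a start summit without replicate 2 and 24.2% without replicate 3. Members with a summit in the body or within 20 kb outside were 9 to 10 under all 7 alternatives. No paired analysis was possible because there is 1 group. Without replicate 3 sax joined the members with a start summit, and without replicate 2 sog left those with a body summit. Of the 10 own peaks, 8 lie below the median signal, and the read depth behind them is unknown.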
